A study of Mus musculus with 12 samples.

Results

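Tuft cells are rare chemosensory cells of the intestinal epithelium. They sense luminal signals through a taste-type cascade that ends in the cation channel TRPM5. They answer with the cytokine IL-25, leukotrienes and prostaglandins. IL-25 and leukotrienes activate group 2 innate lymphoid cells below the epithelium, and IL-13 from those lymphoid cells favours the formation of more tuft cells. The transcription factor POU2F3 is required for the lineage. The 9 genes described here were taken by symbol from the deposited expression table of 55421 genes: Pou2f3, Gfi1b, Trpm5, Avil, Sh2d6, Dclk1, Alox5, Ptgs1 and Il25.

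Bulk RNA-seq was made from epithelial cells of mouse jejunum, in 4 groups of 3 libraries: Fzd5KO at day 3, Ctrl at day 3, Fzd5KO at day 1 and Ctrl at day 1. Fzd5 encodes Frizzled 5, a Wnt receptor. The labels give no strain, age, promoter of a Cre or event from which the days were counted. No label ties replicates to separate animals, so the p-values measure only the spread between libraries, which may be technical. Values are TPM (transcript abundance scaled to length and to the same total in each library), so depth is unknown and a level may be compared between genes. Changes are differences in log2(TPM + 1) ± SE between group means of 3 libraries, tested with limma and called at an adjusted p under 0.05. This scale understates the change of genes near or under 1 TPM.

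Fzd5 itself had 39.7, 37.8 and 38.3 TPM in Fzd5KO at day 3, against 68.2, 65.9 and 60.5 TPM in Ctrl at day 3 (log2 change −0.73 ± 0.055, limma adjusted p = 4.42e-07). At day 1 it had 31.9, 33.1 and 33.1 TPM in Fzd5KO, against 43.5, 49.4 and 46.8 TPM in Ctrl (log2 change −0.50 ± 0.055, adjusted p = 0.000151). Every Fzd5KO library lay below every Ctrl library of its day. The sources used here do not give the deleted part of the gene, and transcript from outside it would still be measured.

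The number of genes above 0 ranged over the libraries from 21506 to 24467 and was highest for Ctrl day 1 replicate 1. That library also stood apart from the others of its group on the third principal component (score −34.5, against −13.9 and −8.54). The tests covered 14510 genes, those with 1 TPM or more in 3 or more libraries. The median change of these genes was −0.14 for Fzd5KO against Ctrl on each day, and 0.11 for day 3 against day 1 in each genotype. The genotype medians moved by 0.11 (day 3) and 0.14 (day 1) under quantile normalization and by 0.13 (day 3) and 0.15 (day 1) under median-of-ratios scaling, so small changes are relative to the scale chosen. Calls toward higher made up 38.7% of all genotype calls at day 3 as deposited, 47.5% after quantile normalization and 52.6% after median-of-ratios scaling. At day 1 these shares were 8.53%, 48.1% and 62.5%, and for the mean of both days 29.8%, 49.0% and 55.4%. For day 3 against day 1 they were 76.6%, 51.6% and 56.2% in Fzd5KO, and 69.4%, 49.2% and 42.3% in Ctrl.

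At day 3, 7 of the 9 tuft cell genes fell in Fzd5KO (Pou2f3, Trpm5, Avil, Sh2d6, Dclk1, Alox5 and Ptgs1), and none rose. Among all tested genes 62.8% were called in this comparison, 38.5% lower and 24.3% higher. The median change over the 9 genes was −1.19, against −0.14 over all tested genes. The 9 genes summed to 9.73 to 12.9 TPM in Fzd5KO and to 48.6 to 54.0 TPM in Ctrl at day 3, and to 22.5 to 25.9 TPM in Fzd5KO and 27.2 to 32.4 TPM in Ctrl at day 1. In bulk RNA, fewer tuft cells and less RNA of these genes per cell cannot be told apart. Gfi1b and Il25 stayed under 1 TPM in all 12 libraries and were tested only in the table without a filter. Pou2f3 passed the filter through 4 Ctrl libraries, and Alox5 through 5 Ctrl libraries and 1 Fzd5KO library, so for both the filter rested on the group where the gene was higher. The number of genes that passed is therefore no support for the direction.

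**Figure D1:**
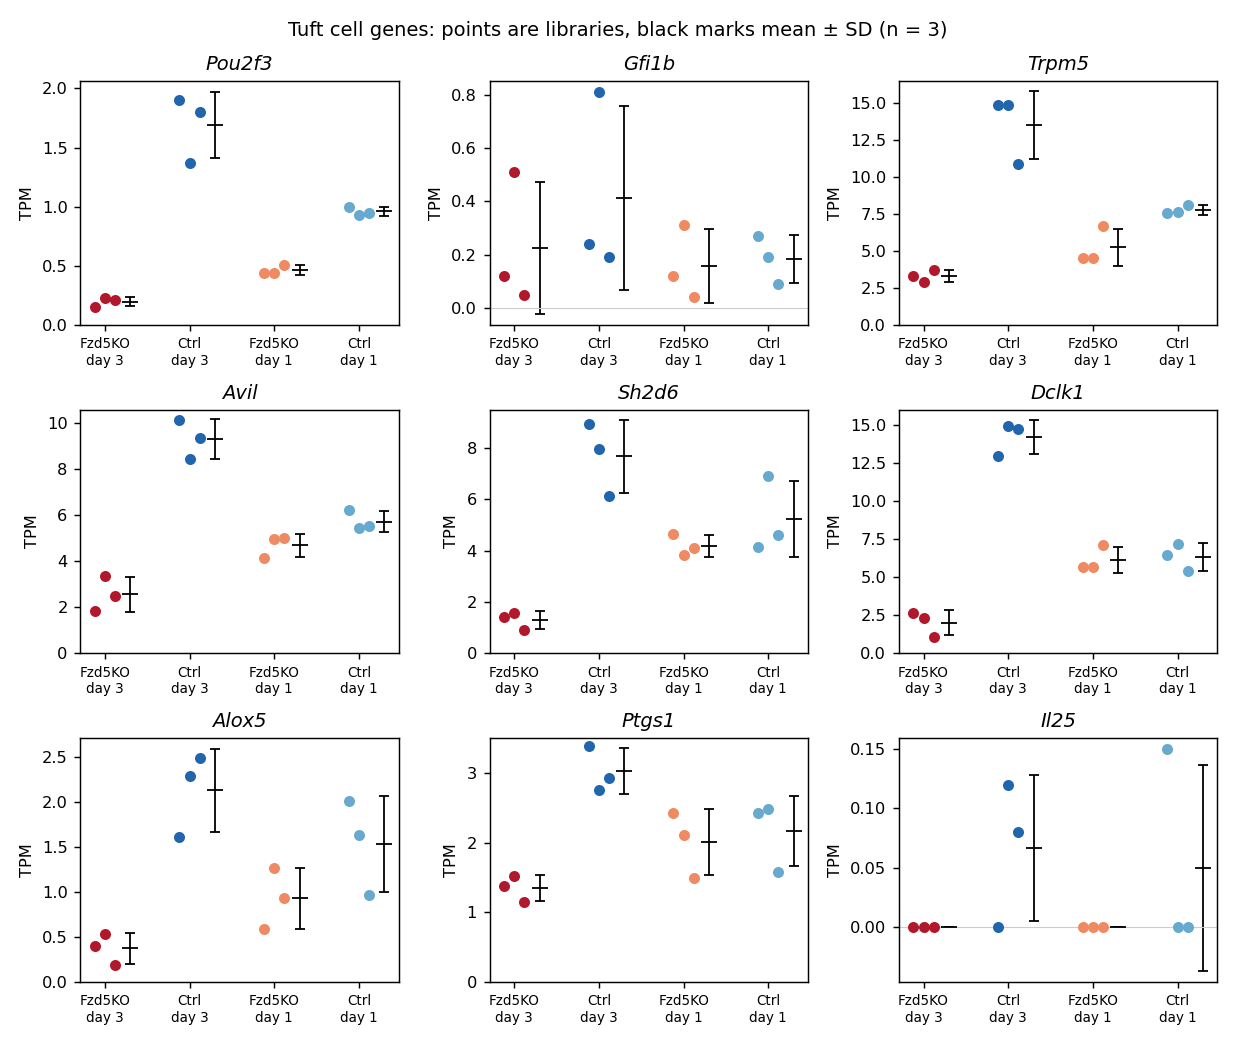
TPM of the 9 tuft cell genes in each library (points) of Fzd5KO and Ctrl at day 3 and day 1, with the group mean ± SD (n = 3) in black beside them. At day 3 every Fzd5KO library lies below every Ctrl library for 7 genes, all but Gfi1b and Il25, against 40.8% of all tested genes. The 2 genotypes lie closer together at day 1.

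The lineage regulators came first in the order of roles. Pou2f3 (chromosome 9, 43123939 to 43210369, minus strand, GRCm38) had 0.15, 0.23 and 0.21 TPM in Fzd5KO at day 3, against 1.90, 1.37 and 1.80 TPM in Ctrl. On day 1 the values were 0.44, 0.44 and 0.51 TPM in Fzd5KO, against 1.0, 0.93 and 0.95 TPM in Ctrl. All 6 Fzd5KO libraries were below all 6 Ctrl libraries, and the knockout mean was 11.6% of the control mean at day 3 and 48.3% at day 1. The log2 change was −1.16 ± 0.11 at day 3 (adjusted p = 4.03e-06) and −0.42 ± 0.11 at day 1 (adjusted p = 0.0211). This day 1 call did not hold after quantile normalization (−0.30, adjusted p = 0.122), nor when replicate 1 or 2 of Fzd5KO or of Ctrl at day 1 was left out (adjusted p = 0.0507 to 0.0598).

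Gfi1b (chromosome 2, 28609450 to 28621982, minus strand) encodes a zinc-finger repressor that also acts in erythroid cells and megakaryocytes. It had 0.12, 0.51 and 0.050 TPM in Fzd5KO at day 3, against 0.24, 0.81 and 0.19 TPM in Ctrl. At day 1 it had 0.12, 0.31 and 0.040 TPM in Fzd5KO and 0.27, 0.19 and 0.090 TPM in Ctrl. The groups overlapped on both days, and the change was −0.20 ± 0.18 at day 3 (adjusted p = 0.497 in the unfiltered table) and −0.037 ± 0.18 at day 1 (adjusted p = 0.986). The day 1 sign turned under quantile normalization (0.015), and no difference was detectable at these levels.

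The signalling and structural genes are Trpm5, Avil, Sh2d6 and Dclk1. Promoter windows are shown for Trpm5 and Dclk1, which had the highest mean levels of the 9 genes in Ctrl at day 3, and for Avil, whose window held a match to the letters searched. Of the 9 genes, 7 had a RefSeq window (GRCm38.p6) from 250 bases before to 50 after an annotated start, Dclk1 with 2 starts and Pou2f3 and Il25 with none in the table used. The octamer ATGCAAAT, the core site of POU-family factors, was searched on both strands and occurred in 0 of the 8 windows, against 1.74% of all 32851 windows of that length. Its first 7 letters, ATGCAAA, searched on both strands after the sequences had been seen, occurred in 1 of the 8 windows, that of Avil, and in 4.63% of all windows. Each octamer also contains the shorter motif. The Avil window held the 7 letters at 2 places, starting at −115 (on the opposite strand) and −15 from the start site, marked by capitals. The 250 bases before each start are given 5′ to 3′ on the gene's strand.
Avil, chr10:127000459-127000708, plus strand: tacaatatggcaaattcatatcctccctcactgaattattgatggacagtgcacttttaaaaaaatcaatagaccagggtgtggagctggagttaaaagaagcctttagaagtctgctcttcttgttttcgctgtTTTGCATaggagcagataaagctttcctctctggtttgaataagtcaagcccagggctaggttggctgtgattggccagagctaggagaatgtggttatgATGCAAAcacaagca
Trpm5, chr7:143094643-143094892, minus strand: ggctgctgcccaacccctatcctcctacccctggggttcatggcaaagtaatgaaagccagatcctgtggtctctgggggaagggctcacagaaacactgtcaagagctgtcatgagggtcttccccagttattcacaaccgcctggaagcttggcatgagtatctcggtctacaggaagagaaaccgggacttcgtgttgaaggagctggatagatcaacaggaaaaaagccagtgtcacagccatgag
Dclk1, upstream start, chr3:55242114-55242363, plus strand: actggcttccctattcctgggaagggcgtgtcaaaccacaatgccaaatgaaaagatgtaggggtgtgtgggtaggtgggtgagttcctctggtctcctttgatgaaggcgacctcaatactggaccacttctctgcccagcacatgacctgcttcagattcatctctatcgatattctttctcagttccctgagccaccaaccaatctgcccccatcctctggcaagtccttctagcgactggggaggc
Dclk1, downstream start, chr3:55461478-55461727, plus strand: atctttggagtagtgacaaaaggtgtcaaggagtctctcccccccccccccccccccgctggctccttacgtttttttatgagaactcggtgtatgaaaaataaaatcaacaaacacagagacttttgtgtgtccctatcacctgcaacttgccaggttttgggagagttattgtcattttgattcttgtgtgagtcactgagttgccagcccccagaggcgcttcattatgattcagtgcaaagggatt

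A match to these letters is not a binding site, and a window without one says nothing of the factor. The gene-level TPM of Dclk1 joins transcripts of both starts.

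Trpm5 (chromosome 7, 143069153 to 143094642, minus strand), the cation channel at the end of the taste-type cascade, had 3.33, 2.88 and 3.69 TPM in Fzd5KO at day 3, against 14.9, 14.9 and 10.9 TPM in Ctrl. On day 1 the libraries had 4.51, 4.50 and 6.70 TPM in Fzd5KO, against 7.55, 7.62 and 8.14 TPM in Ctrl. The genotypes did not overlap on either day. The change was −1.75 ± 0.15 at day 3 (adjusted p = 1.19e-06, 24.4% of the control mean) and −0.51 ± 0.15 at day 1 (adjusted p = 0.0280, 67.4%). Its day 1 call did not hold after quantile normalization (−0.35, adjusted p = 0.128), after median-of-ratios scaling (−0.36, adjusted p = 0.115) or without a filter (adjusted p = 0.0700). Leaving out replicate 1 or 2 of Fzd5KO, or replicate 1, 2 or 3 of Ctrl, at day 1 ended it too (adjusted p = 0.0540 to 0.0968). Tssc4 overlaps Trpm5 on the opposite strand, and the sources used here do not say whether counting used strand. Tssc4 had 7.89 to 12.4 TPM in Fzd5KO and 12.3 to 14.4 TPM in Ctrl at day 3.

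Avil (chromosome 10, 127000709 to 127020994, plus strand) encodes advillin, an actin-binding protein of the villin family that marks tuft cells. It had 1.85, 3.35 and 2.48 TPM in Fzd5KO at day 3, against 10.1, 8.43 and 9.34 TPM in Ctrl (−1.55 ± 0.14, adjusted p = 1.93e-06). In the day 1 libraries it had 4.12, 4.95 and 5.01 TPM in Fzd5KO, against 6.22, 5.42 and 5.51 TPM in Ctrl. The day 1 libraries did not overlap, but the change of −0.24 ± 0.14 did not pass (adjusted p = 0.222). Tsfm, which overlaps Avil on the opposite strand, had 11.9 to 16.01 TPM in Fzd5KO and 16.0 to 20.1 TPM in Ctrl at day 3.

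Sh2d6 (chromosome 6, 72513641 to 72521707, minus strand), which encodes an SH2-domain adaptor, had 1.43, 1.56 and 0.90 TPM in Fzd5KO at day 3, against 8.93, 7.95 and 6.14 TPM in Ctrl (−1.92 ± 0.18, adjusted p = 2.72e-06). At day 1 it had 4.66, 3.82 and 4.10 TPM in Fzd5KO, against 4.16, 6.91 and 4.62 TPM in Ctrl. Of the Ctrl libraries there, replicate 2 alone stood above all Fzd5KO libraries, and the change of −0.24 ± 0.18 did not pass (adjusted p = 0.343).

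Dclk1 (chromosome 3, 55242364 to 55539068, plus strand) encodes a doublecortin-like kinase, the marker most often used to stain tuft cells. It had 2.63, 2.32 and 1.06 TPM in Fzd5KO at day 3, against 12.9, 14.9 and 14.7 TPM in Ctrl. The day 3 change of −2.38 ± 0.19 (adjusted p = 6.68e-07) was the largest among the 9 genes on the log2(TPM + 1) scale. The knockout mean was 14.1% of the control mean, and by this percent Pou2f3, a gene near 1 TPM, was lower (11.6%). At day 1 Dclk1 had 5.64, 5.63 and 7.10 TPM in Fzd5KO, against 6.42, 7.19 and 5.37 TPM in Ctrl. These libraries overlapped fully, and the change of −0.039 ± 0.19 did not pass (adjusted p = 0.897). Its sign turned under both other scalings (0.12 after quantile normalization, 0.11 after median-of-ratios scaling).

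The effector genes are Alox5, Ptgs1 and Il25. Alox5 (chromosome 6, 116410077 to 116461178, minus strand) encodes 5-lipoxygenase, the first enzyme of leukotriene synthesis, and is also expressed by myeloid and mast cells. It had 0.40, 0.53 and 0.19 TPM in Fzd5KO at day 3, against 1.61, 2.29 and 2.49 TPM in Ctrl (−1.19 ± 0.19, adjusted p = 0.000255, 17.5% of the control mean). At day 1 it had 0.59, 1.27 and 0.93 TPM in Fzd5KO, against 2.01, 1.63 and 0.96 TPM in Ctrl, with overlap between the third Ctrl library and the knockout (−0.39 ± 0.19, adjusted p = 0.169).

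Ptgs1 (chromosome 2, 36230426 to 36252272, plus strand) encodes cyclooxygenase 1, which starts prostaglandin synthesis and is also present in platelets, endothelium and myeloid cells. It had 1.38, 1.52 and 1.15 TPM in Fzd5KO at day 3, against 3.39, 2.75 and 2.93 TPM in Ctrl. The change of −0.78 ± 0.15 (adjusted p = 0.000868) was the smallest of the 7 that passed, and the knockout mean was 44.7% of the control mean. At day 1 Ptgs1 had 2.42, 2.11 and 1.49 TPM in Fzd5KO and 2.43, 2.48 and 1.58 TPM in Ctrl (−0.073 ± 0.15, adjusted p = 0.750), a change whose sign also turned under both (0.11 by quantiles, 0.046 by median-of-ratios).

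Il25 (chromosome 14, 54932695 to 54935837, plus strand), the tuft cell cytokine, was listed at 0 in all 6 Fzd5KO libraries and in 3 of 6 Ctrl libraries. The Ctrl libraries above 0 had 0.12 and 0.080 TPM at day 3 and 0.15 TPM at day 1. No fold can be given, and the difference was not detectable at these levels (adjusted p = 0.277 at day 3 and 0.526 at day 1 in the unfiltered table).

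**Figure D2:**
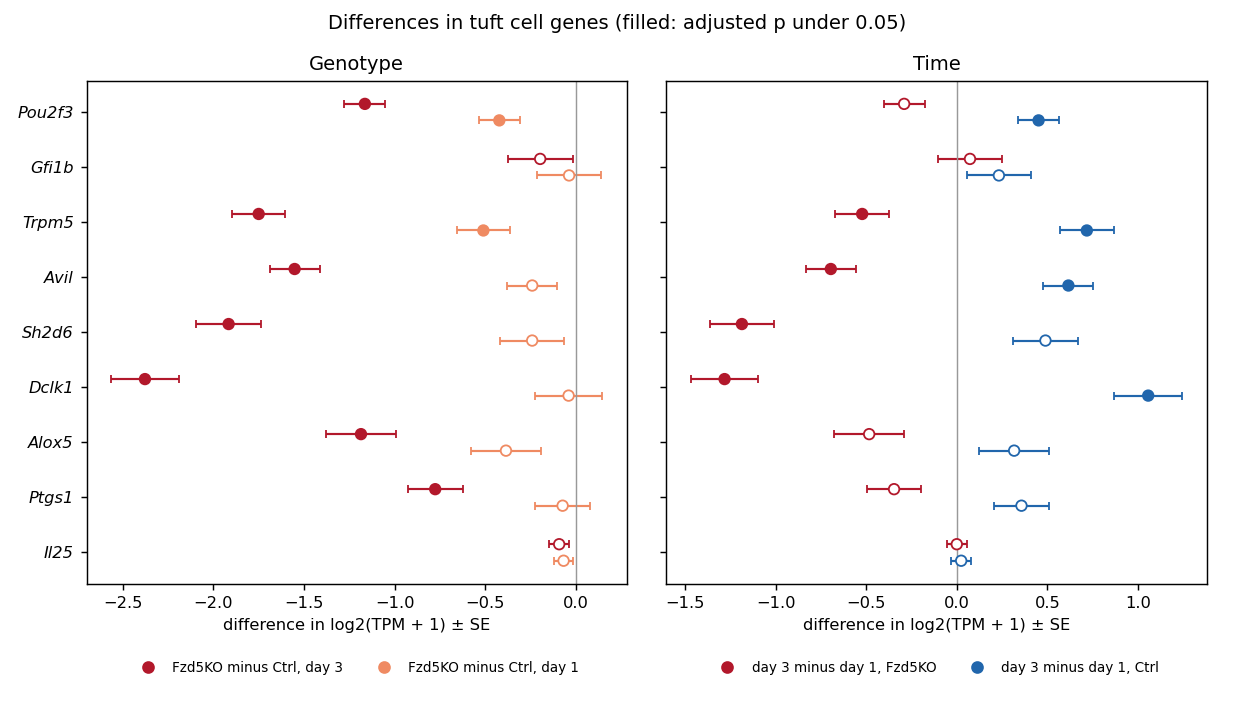
Differences in log2(TPM + 1) ± SE for the 9 genes, with filled points where the adjusted p was under 0.05. The left panel sets Fzd5KO against Ctrl on each day, with 7 genes lower at day 3 and 2 at day 1. Of all tested genes 38.5% were called lower at day 3 and 22.8% at day 1. The right panel sets day 3 against day 1 within each genotype, with called genes lower in Fzd5KO and higher in Ctrl.

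At day 1, 2 of the 9 genes fell (Pou2f3 and Trpm5) and none rose, against 22.8% of all tested genes called lower and 2.13% higher (25% in all). The median change of the 9 genes was −0.24 and that of all tested genes −0.14. In 3 of the 9 genes (Pou2f3, Trpm5 and Avil) every Fzd5KO library lay below every Ctrl library at day 1, against 38.9% of tested genes. At day 3 the same separation held for 7 of the 9, against 40.8%. The day 1 share was thus near that of all genes.

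The genotype effect was larger at day 3 than at day 1. The difference between the 2 effects was called, as lower at day 3, for the same 7 genes that fell at day 3, against 19.1% of all tested genes called lower, 25.3% higher and 44.3% in all. It was −2.34 ± 0.26 for Dclk1 (adjusted p = 2.56e-05), −1.68 ± 0.25 for Sh2d6 (adjusted p = 0.000234), −1.31 ± 0.20 for Avil (adjusted p = 0.000223) and −1.24 ± 0.21 for Trpm5 (adjusted p = 0.000530). For Pou2f3 it was −0.74 ± 0.16 (adjusted p = 0.00293). For Alox5 and Ptgs1 it was −0.80 ± 0.28 (adjusted p = 0.0344) and −0.70 ± 0.21 (adjusted p = 0.0192), and both calls were lost without a filter (adjusted p = 0.0818 and 0.0539). Quantile normalization also ended the Alox5 call (adjusted p = 0.0656). So did leaving out replicate 1 or 3 of Fzd5KO or replicate 2 or 3 of Ctrl at day 3, or replicate 2 or 3 of Fzd5KO or replicate 3 of Ctrl at day 1 (adjusted p = 0.0539 to 0.0825). Averaged over both days, 7 of the 9 genes were lower in Fzd5KO, against 41.3% of all tested genes called lower, 17.6% higher and 58.9% in all. On the log2(TPM + 1) scale the ends of the range were −1.21 ± 0.13 for Dclk1 and −0.42 ± 0.11 for Ptgs1. This scale understates the change of Pou2f3, a gene near 1 TPM. That Ptgs1 call did not hold after quantile normalization (−0.23, adjusted p = 0.0929). These contrasts use the same libraries as the single days. The mean over days joined unlike effects. It joined −2.38 at day 3 with −0.039 at day 1 for Dclk1, and −0.78 with −0.073 for Ptgs1.

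Over time, Dclk1, Trpm5 and Avil passed in both genotypes, lower at day 3 in Fzd5KO and higher at day 3 in Ctrl. From day 1 to day 3 in Fzd5KO, 4 of the 9 genes fell and none rose, against 10.5% of all tested genes called lower, 34.4% higher and 44.9% in all. The changes were −1.28 ± 0.19 for Dclk1 (adjusted p = 0.000161), −1.19 ± 0.18 for Sh2d6 (adjusted p = 0.000202), −0.70 ± 0.14 for Avil (adjusted p = 0.00158) and −0.52 ± 0.15 for Trpm5 (adjusted p = 0.0130). The Trpm5 call was lost without Fzd5KO day 3 replicate 2 (adjusted p = 0.0510). Pou2f3 (−0.29, adjusted p = 0.0573), Alox5 (−0.48, adjusted p = 0.0642) and Ptgs1 (−0.35, adjusted p = 0.0850) did not pass. With median-of-ratios scaling they did, which gave 7 of the 9 lower, while the number of all genes called lower was 2771 under that scaling, against 1525 as deposited. Pou2f3 also passed with a pseudocount of 0.1 (−0.93, adjusted p = 0.0131), with no trend (adjusted p = 0.00746) and with only the groups compared (adjusted p = 0.0134). Alox5 also passed with a pseudocount of 0.1 (−1.14, adjusted p = 0.0290) and without replicate 1 of Fzd5KO or replicate 3 of Ctrl at day 1 (adjusted p = 0.0376 and 0.0420). Ptgs1 also passed without replicate 3 of Fzd5KO at day 1 (adjusted p = 0.0286).

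In Ctrl, 4 of the 9 genes rose by day 3 and none fell, against 25% of all tested genes called higher, 11% lower and 36.1% in all. Dclk1 rose by 1.06 ± 0.19 (adjusted p = 0.00130), to a mean of 14.2 ± 1.10 TPM at day 3, against 6.33 ± 0.914 TPM at day 1 (SD, n = 3 each). Trpm5 rose by 0.72 ± 0.15 (adjusted p = 0.00331), Avil by 0.62 ± 0.14 (adjusted p = 0.00550) and Pou2f3 by 0.45 ± 0.11 (adjusted p = 0.0100). Sh2d6 (0.49, adjusted p = 0.0516), Ptgs1 (0.36, adjusted p = 0.0867) and Alox5 (0.32, adjusted p = 0.228) did not pass. Sh2d6 passed with a pseudocount of 5 (adjusted p = 0.0343) or a filter of 5 TPM (adjusted p = 0.0458), and without replicate 3 of Fzd5KO or of Ctrl at day 3 or replicate 2 of Ctrl at day 1 (adjusted p = 0.0109 to 0.0429). Every Ctrl library of day 3 lay above every one of day 1 for 5 of the 9 genes (Pou2f3, Trpm5, Avil, Dclk1 and Ptgs1), against 33% of tested genes. Every Fzd5KO library of day 3 lay below every one of day 1 for 6 (all but Gfi1b, Ptgs1 and Il25), against 14.5%.

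In 7 of the 9 genes the group means followed 1 order, lowest in Fzd5KO at day 3, then Fzd5KO at day 1, then Ctrl at day 1, and highest in Ctrl at day 3, an order found in 20.8% of tested genes. For Pou2f3, Trpm5 and Avil neighbouring groups in that order did not overlap at any step, which held for 3.16% of tested genes. For Sh2d6, Dclk1, Alox5 and Ptgs1 the 2 middle groups, Fzd5KO and Ctrl at day 1, overlapped, as did the Ctrl days for Sh2d6 and Alox5 and the Fzd5KO days for Ptgs1. This order was looked for after the values had been seen, and on the values as deposited alone. The log2 change of its middle step, between genotypes at day 1, turned sign under the other scalings for Dclk1 and Ptgs1. It was 0.12 for Dclk1 and 0.11 for Ptgs1 after quantile normalization, and 0.11 and 0.046 after median-of-ratios scaling. For these genes the order thus depends on the scale chosen.

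Within groups little shared variation of the genes was seen. With group means removed, the correlation of log2(TPM + 1) over the 12 libraries had a median of −0.069 over the 21 pairs of the 7 tested genes, from −0.57 (Trpm5 with Ptgs1) to 0.61 (Pou2f3 with Avil), and 11 pairs lay below 0. By the same measure, the genes most like the mean of the 7 were Urb2, Noa1, B4galt6, Rps18, Pbld1, Ptp4a2, Fam32a, Vapa, Senp7 and Gm29819 (r = 0.97 for Urb2 to 0.92 for Gm29819). Since the 7 genes showed little in common within groups, this likeness describes the spread of single libraries. With 12 libraries and genes at these levels, that spread may also hide variation that the genes share.

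With the group means left in, a measure added after the first had been seen, the 7 genes correlated with each other at 0.76 to 0.95. The genes most like their mean were then Ccna2 and Sumo2 (r = 0.99 each), followed by Top2a, Spink4 and Chga (0.99 each). Among them are the cyclin Ccna2, the topoisomerase Top2a of dividing cells and the enteroendocrine granule gene Chga. Sox4 ranked 27 and Cd24a 40 of 14503 genes. An r of at least 0.9 was reached by 1236 genes (8.52%), so the 4-group pattern was shared by genes of other cell types. All of these r values rest on 12 libraries that share the same scaling and the same 4 group differences.

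Other genes of tuft cell biology were read from lists by role, of which a change at day 3 is given against 38.5% of all tested genes called lower and 24.3% called higher. Of transcription factors linked to tuft fate, 6 of 11 were tested, 5 fell, 0 rose, and the median change was −0.79. Ascl2, a Wnt-responsive factor of stem cells, averaged 0.423 ± 0.163 TPM in Fzd5KO and 6.07 ± 0.178 TPM in Ctrl at day 3 (SD, n = 3 each, −2.32 ± 0.12). Sox4, a factor for a route to tuft cells in mouse, averaged 2.13 ± 0.150 TPM in Fzd5KO and 11.1 ± 0.826 TPM in Ctrl (−1.95 ± 0.073). Sox9 changed by −0.98, Spib by −0.61 and Atoh1, the secretory lineage factor, by −0.52, and Spib did not pass after quantile normalization (−0.35, adjusted p = 0.0947). Hmx2, Hmx3 and Hivep3 stayed under 1 TPM, and 2 listed symbols were not analysed here.

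Of taste-type signalling genes, 8 of 12 were tested, 5 fell, 2 rose, and the median change was −0.54. Gng13 and Ffar3, which are among the 5, reached 1 TPM in the 3 Ctrl libraries of day 3 alone, so they were tested only through the group where they were high. Rgs13, a regulator of G-protein signalling, averaged 1.36 ± 0.275 TPM in Fzd5KO and 8.45 ± 0.758 TPM in Ctrl (−2.01 ± 0.13). Gng13, the gamma subunit of the taste G protein, was listed at 0 in every Fzd5KO library at day 3 and averaged 1.49 ± 0.341 TPM in Ctrl. Plcb2, the phospholipase that acts upstream of TRPM5, changed by −0.83 (adjusted p = 0.00283). Plcg2 rose by 0.57 and Trpm4 by 0.39, and Itpr3, the calcium release channel of the cascade, was at −0.037 (adjusted p = 0.395). Trpm4 averaged 131.7 TPM in Fzd5KO and 100.2 TPM in Ctrl, and Itpr3 52.6 and 54.0 TPM, against 3.30 and 13.5 TPM for Trpm5. The part of cells other than tuft cells in the values of Plcg2, Trpm4 and Itpr3 was not tested. Itpr3 was called higher under median-of-ratios scaling (0.11, adjusted p = 0.00517) and lower under quantile normalization (−0.15, adjusted p = 0.000736). The count of 5 lower genes was 3, 2 and 3 without Ctrl day 3 replicate 1, 2 and 3 in turn, and 1 with a filter of 5 TPM.

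Of genes for eicosanoid synthesis, 7 of 9 were tested, 4 fell, 1 rose, and the median change was −0.47. Pla2g4a, the phospholipase that releases arachidonic acid, averaged 2.29 ± 0.531 TPM in Fzd5KO and 10.01 ± 1.06 TPM in Ctrl (−1.75 ± 0.16). Alox5ap, the 5-lipoxygenase activating protein, averaged 1.99 ± 0.470 TPM in Fzd5KO and 7.64 ± 0.329 TPM in Ctrl (−1.54 ± 0.13). Hpgds, a prostaglandin D synthase, changed by −0.74 and Ptges3 by −0.47. Hpgds reached 1 TPM in the Ctrl libraries and in 1 Fzd5KO library, of day 1, so its filter rested on the group where it was higher. Ptges3 averaged 56.0 TPM in Fzd5KO and 77.8 TPM in Ctrl, and the part of cells other than tuft cells in its values was not tested. Lta4h, the leukotriene A4 hydrolase, rose by 0.34, but did not pass after quantile normalization (adjusted p = 0.0840). Ltc4s, the leukotriene C4 synthase, had 7.61 ± 0.946 TPM in Fzd5KO and 8.54 ± 0.942 TPM in Ctrl (−0.15 ± 0.13, adjusted p = 0.328), and its sign turned with quantile normalization (0.073).

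Of 8 genes of the circuit with group 2 lymphoid cells, 5 were tested, 4 rose, 1 fell, and the median change was 0.67. Il4ra, a receptor chain for IL-4 and IL-13, averaged 36.6 ± 1.54 TPM in Fzd5KO and 22.6 ± 0.253 TPM in Ctrl (0.67 ± 0.045). Il13ra1 averaged 87.3 ± 5.15 TPM in Fzd5KO and 49.9 ± 2.71 TPM in Ctrl (0.79 ± 0.051). Il2rg, a receptor chain of lymphocytes, rose by 1.01 and Stat6, which acts below these receptors, by 0.17. Stat6 did not pass after quantile normalization (adjusted p = 0.722), nor without Fzd5KO day 3 replicate 2 (adjusted p = 0.0666) or Ctrl day 3 replicate 3 (adjusted p = 0.0580). Il17rb, a receptor chain for IL-25, fell by 0.41, but did not pass after quantile normalization (−0.21, adjusted p = 0.148). Il13 and Il4 were listed at 0 in all 12 libraries. In every library Il4ra, Il13ra1 and Stat6 lay above each of the tuft cell genes described here. The part of cells other than tuft cells in the values of Il4ra, Il13ra1, Stat6 and Il2rg was not tested.

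Of genes for tuft cytoskeleton, surface and adaptors, 19 of 24 were tested, 11 fell, 5 rose, and the median change was −0.46. Cd24a, a surface protein, averaged 49.9 ± 1.14 TPM in Fzd5KO and 140.1 ± 5.77 TPM in Ctrl (−1.47 ± 0.036), and Kctd12 changed by −1.40 ± 0.074. The actin bundlers Vil1 (1.09 ± 0.032) and Espn (1.06 ± 0.052), which enterocytes also express, rose, with Vil1 at 1403 ± 43.7 TPM in Fzd5KO and 658 ± 15.9 TPM in Ctrl. The other genes that rose were Ptprc, Rac2 and Ptpn6, which leukocytes express. Nrep, 1 of the 11, passed the filter through Ctrl libraries alone. The count of 11 lower genes was 5 with a filter of 5 TPM.

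On day 1 fewer genes of these lists passed. Of transcription factors 4 of 6 fell, of taste-type signalling genes 4 of 8, of eicosanoid genes 3 of 7 and of cytoskeleton, surface and adaptor genes 6 of 19, against 22.8% of all tested genes called lower. These day 1 counts were made on the values as deposited and were not repeated under the other scalings. All genes called lower at day 1 numbered 3313 as deposited, 920 after quantile normalization and 830 after median-of-ratios scaling. Of the 3 eicosanoid genes, Lta4h changed by −0.14 (limma adjusted p = 0.0480), as did the median of all tested genes. Ascl2 averaged 1.38 ± 0.284 TPM in Fzd5KO and 3.86 ± 0.323 TPM in Ctrl (SD, n = 3 each, −1.03 ± 0.12). That was the largest day 1 change on the log2(TPM + 1) scale among the tested genes of these lists. The medians of these 4 lists were −0.52, −0.21, −0.18 and −0.16 in that order, against −0.14 over all tested genes. Of the 5 tested genes of the circuit with group 2 lymphoid cells 0 passed by limma at day 1, and 1, Stat6, had an unadjusted p under 0.05 (adjusted p = 0.0559).

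**Figure D3:**
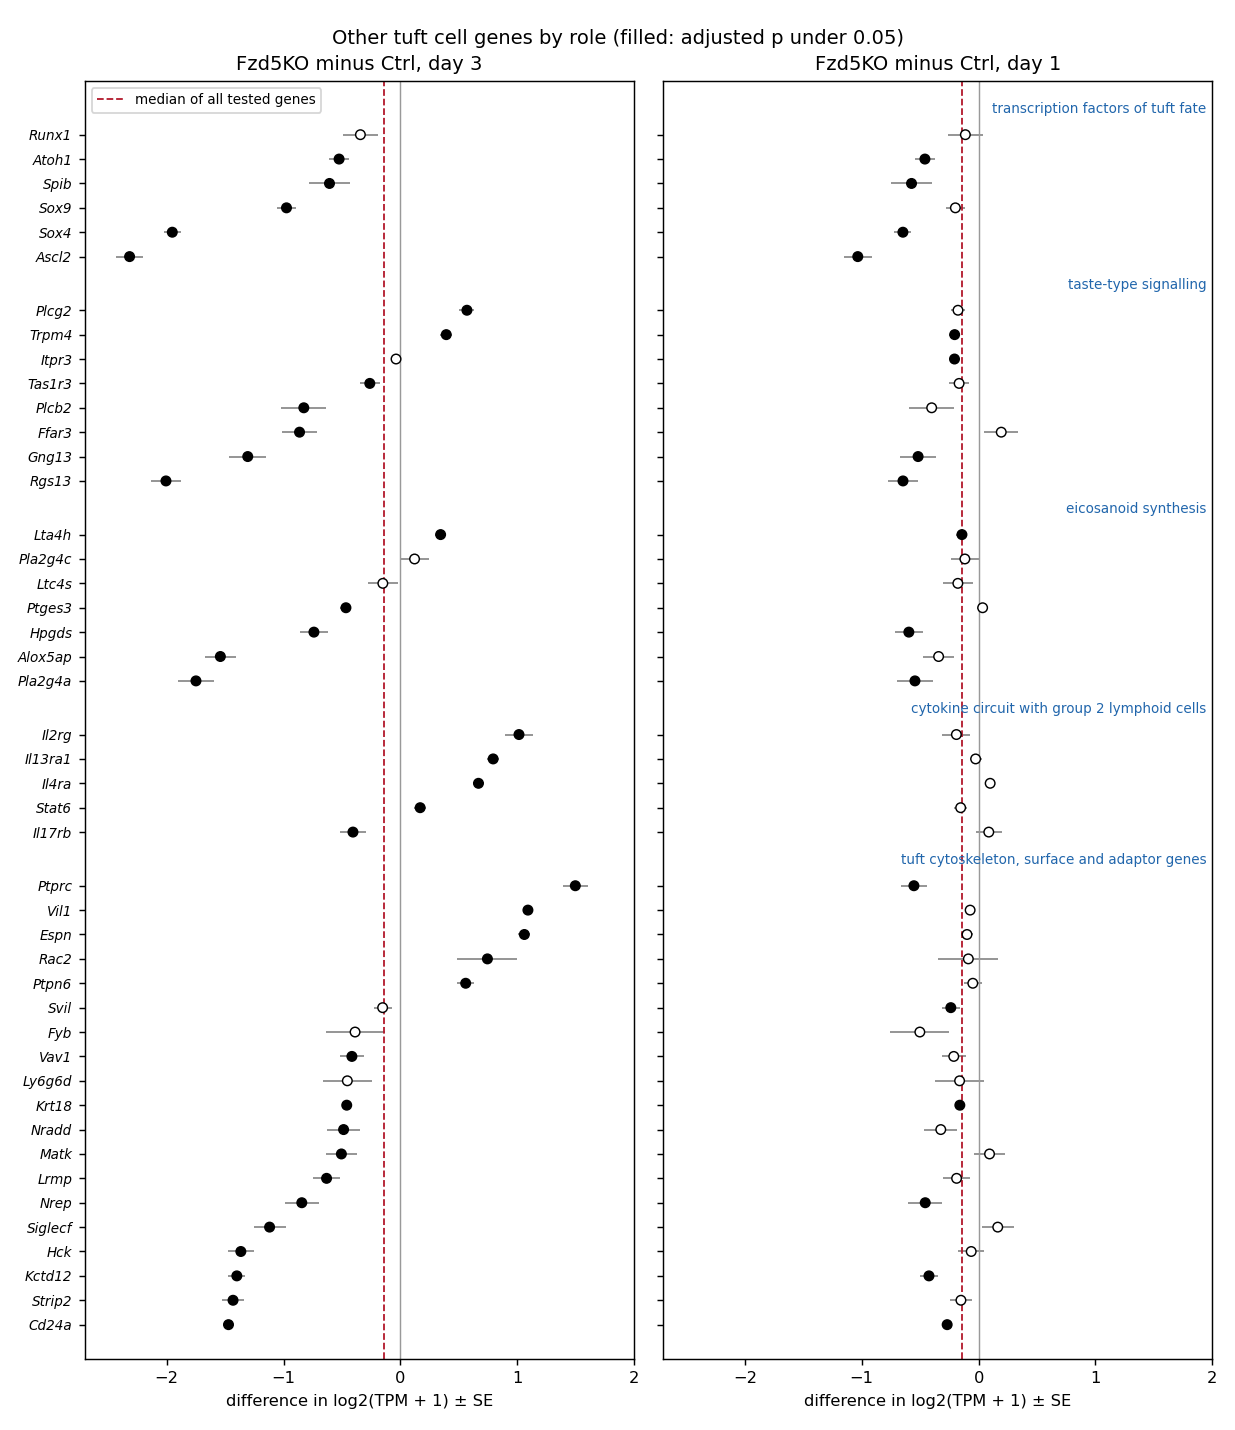
Differences in log2(TPM + 1) ± SE of the tested genes of 5 lists by role, Fzd5KO minus Ctrl at day 3 (left) and day 1 (right), filled where the adjusted p was under 0.05. The dashed line is the median of all tested genes (−0.14 on each day). At day 3 genes such as Ascl2, Rgs13 and Pla2g4a lie far left, while Il4ra and Il13ra1 lie right of 0.

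Markers of other cells differed between the groups too. Counts of called markers, here and below, stand against these shares of all tested genes. For genotype at day 3, 38.5% were called lower and 24.3% higher. For genotype at day 1, 22.8% were called lower and 2.13% higher. For day 3 against day 1 in Ctrl, 11% were called lower and 25% higher. At day 3 the T cell and intraepithelial lymphocyte markers summed to 156 to 178 TPM in Fzd5KO and 42.7 to 45.5 TPM in Ctrl, and 9 of 9 tested markers rose. At day 1 they summed to 117 to 138 TPM in Fzd5KO and 175 to 196 TPM in Ctrl, with 0 higher and 4 lower by limma, and within Ctrl 9 of 9 were lower at day 3 than at day 1. Myeloid markers summed to 24.9 to 27.9 TPM in Fzd5KO and 12.2 to 15.1 TPM in Ctrl, and 5 of 7 rose. Of these, Fcgr3 reached 1 TPM in the Fzd5KO libraries of day 3 alone and Csf1r in these and 1 Ctrl library. At day 1 the myeloid sums were 11.1 to 12.6 TPM in Fzd5KO and 12.2 to 14.2 TPM in Ctrl. Mast cell markers summed to 30.3 to 36.05 TPM in Fzd5KO and 19.6 to 22.8 TPM in Ctrl, with 2 of 3 tested markers higher, 1 lower, and 7 of 10 under 1 TPM in every library. The part of myeloid and mast cells in the values of Alox5 and Ptgs1 was not tested.

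The joint list of erythroid and megakaryocyte markers had sums of 59.9 to 72.2 TPM in Fzd5KO and 203 to 231 TPM in Ctrl at day 3, and 5 of 6 tested markers were lower. All 5 are erythroid, namely 4 hemoglobin genes and Alas2, and Alas2 passed the filter through Ctrl libraries alone. Itga2b, the tested megakaryocyte marker, averaged 3.27 ± 1.32 TPM in Fzd5KO and 2.54 ± 0.921 TPM in Ctrl (SD, n = 3 each, 0.26 ± 0.25, adjusted p = 0.387). Gata1, Klf1 and Pf4 stayed under 1 TPM. Their part in the values of Gfi1b and Ptgs1 was not tested. Of the 7 markers of group 2 innate lymphoid cells 1 was tested, Areg, which other cells also express and which rose by 2.54, and Il13 and Il5 were at 0 in all 12 libraries. Of 8 neuron and glia markers 7 stayed under 1 TPM in every library, among them Sox10 and Snap25. The other, Ret, averaged 2.11 ± 0.147 TPM in Fzd5KO and 1.18 ± 0.0755 TPM in Ctrl at day 3 (0.51 ± 0.10, adjusted p = 0.00117). Neurons also express Dclk1, and their part in its values was not tested. Stromal markers summed to 16.6 to 18.8 TPM in Fzd5KO and 14.7 to 17.04 TPM in Ctrl, with 1 of 6 tested markers higher at an adjusted p under 0.05 by limma, Pecam1, which passed the filter through Fzd5KO day 3 and 1 Ctrl library.

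Markers of other secretory cells were also lower in Fzd5KO. At day 3 enteroendocrine markers summed to 97.3 to 103 TPM in Fzd5KO and 346 to 355 TPM in Ctrl, with 9 of 9 lower and a median change of −1.17. Goblet cell markers summed to 5156 to 5529 TPM in Fzd5KO and 7929 to 8390 TPM in Ctrl, with 7 of 7 lower and a median of −0.55. General epithelial markers summed to 7350.1 to 7523 TPM in Fzd5KO and 4925 to 5121 TPM in Ctrl, with 6 of 8 higher and 2 lower, so the libraries were of epithelium in all groups. The medians of these lists are given as a description, and no difference between the lists was tested.

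**Figure D4:**
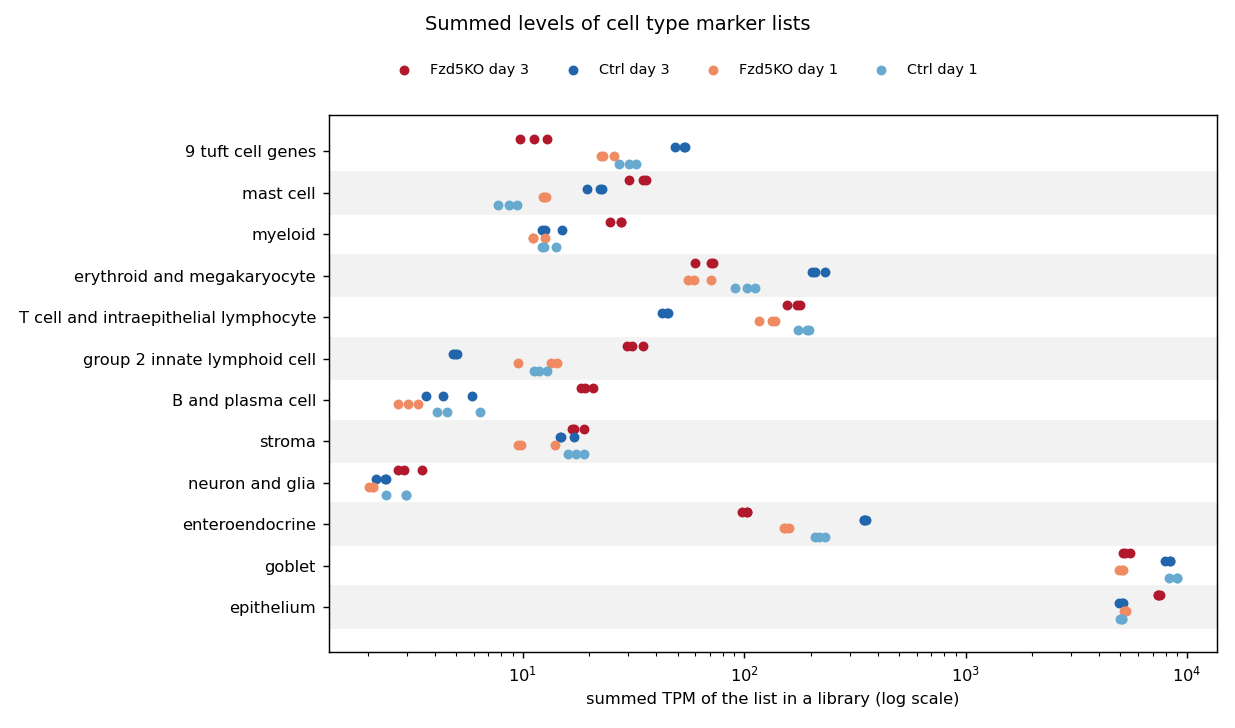
Summed TPM of the 9 tuft cell genes and of 11 lists of cell type markers in each library, on a log axis, in Fzd5KO and Ctrl at day 3 and day 1. At day 3 the tuft, enteroendocrine, goblet and joint erythroid and megakaryocyte sums lie lower in Fzd5KO, and the T cell, myeloid and mast cell sums lie higher.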

How the data were processed

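The authors deposited 1 table of TPM values for 55421 genes with 1 column for each of the 12 libraries and 0 columns of other samples. Per the labels' protocols, RNA was purified with RNeasy columns and a stranded TruSeq kit for total RNA gave the libraries. Per the submitters' processing notes, bcl2fastq 2.18, STAR 2.7.3a, RSEM and build mm10 were used. The sources used here give no annotation, strand setting or depth, so no counting interval was computed. Log2(TPM + 1) was fitted with limma 3.58.1 in R 4.3.3 (4 group means, 8 residual degrees of freedom, intensity trend) for genes that reached 1 TPM in 3 or more libraries. P-values were adjusted by Benjamini-Hochberg over all tested genes of a contrast. Gfi1b and Il25 were fitted with all genes above 0. The steps were tested on simulated data. Coordinates came from GENCODE release M21 (GRCm38, the assembly of mm10), and promoters from RefSeq (GRCm38.p6). Figures were drawn with matplotlib 3.10.9.

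Members, lists and tests were chosen with earlier results of these data known. From each list by role, up to 4 called genes with the smallest p in a genotype contrast and 2 in a time contrast were eligible to be named, with Alox5ap, Il17rb, Il4ra, Il13ra1, Ltc4s, Hpgds, Plcb2, Gng13, Spib and Ascl2 named whatever their result. Genes like the 7 tested members were the 10 with the highest Pearson r, group means removed. Rac2, Ptpn6, Ptprc, Ffar3, Nrep, single marker genes and genes printed as low or at 0 were chosen for mention from their values. The alternatives tried were a pseudocount of 0.1 or 5, a filter of 5 TPM or none, quantile normalization, median-of-ratios scaling, no trend, a replicate block, only the groups compared, and each library left out. Their use for Fzd5 and the genes and counts of the lists by role was chosen after seeing the data.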

Additional observations from a re-analysis of the deposited data

Results flagged for a closer look

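The genotype effect differed between the days by the interaction test for 7 of the 9 genes, all lower at day 3, against 44.3% of all tested genes called and 19.1% called lower. The values are the day 3 effect minus the day 1 effect on the log2(TPM + 1) scale. They were −2.34 for Dclk1, −1.68 for Sh2d6, −1.31 for Avil, −1.24 for Trpm5, −0.80 for Alox5, −0.74 for Pou2f3 and −0.70 for Ptgs1. Without a filter Alox5 and Ptgs1 did not pass (limma adjusted p = 0.0818 and 0.0539), and Alox5 did not pass after quantile normalization (adjusted p = 0.0656).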

How the results depend on the processing

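Of 437 values of the 9 genes under alternatives other than leaving out a library, 412 kept their direction and their side of the threshold, 8 lost and 12 gained a call, and 5 changed sign. The day 3 genotype calls of the 7 genes held under each alternative in which the gene was tested. A filter of 5 TPM left 4 of the 9 genes called at day 3, 4 for the mean of days, 4 for the difference between days and 1 at day 1, because fewer genes were tested. At day 1 quantile normalization called 1771 genes and 0 of the 9, median-of-ratios scaling 2216 and 1, against 3622 and 2 as deposited, and no filter left 1 of the 9. In the Fzd5KO time course median-of-ratios scaling called 7 of the 9, against 4. At day 1 the change turned to 0.12 and 0.11 for Dclk1 and to 0.11 and 0.046 for Ptgs1 in that order of the scalings, and to 0.015 for Gfi1b after quantile normalization. At day 3 Itpr3 turned to 0.11 with median-of-ratios scaling and Ltc4s to 0.073 with quantile normalization. The causes were not tested. Leaving out a library kept 609 of 648 values, with 17 calls lost, 6 gained and 16 signs turned. It gave 2231 (without Ctrl day 1 replicate 2) to 3675 called genes and 0 to 2 of the 9 at day 1, with 0 without replicate 1 or 2 of either genotype and 1 without Ctrl replicate 3. Day 1 changes spanned −0.14 to 0.045 for Dclk1, −0.21 to 0.057 for Ptgs1 and −0.13 to 0.036 for Gfi1b. The difference between days spanned −0.32 to 0.032 for Gfi1b and −0.092 to 0.012 for Il25. Time effects spanned −0.086 to 0.18 for Gfi1b in Fzd5KO and −0.012 to 0.092 for Il25 in Ctrl.

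No pairing of libraries by replicate number was seen (correlations of deviations from group means −0.069 to 0.033). Such values cannot show that there was none, since the spread of single libraries may hide it. The replicate block left the genotype counts of the 9 genes at 7, 2 and 7 (day 3, day 1, mean) and called 5 in the Fzd5KO and 6 in the Ctrl time course, against 4 and 4, adding Ptgs1 in Fzd5KO (adjusted p = 0.0385) and Ptgs1 (0.0419) and Sh2d6 (0.0398) in Ctrl. The share of all tested genes called with the block is not given here, so this gain is no result about the 9 genes. Depth is unknown, and the low TPM of Gfi1b and Il25 limits what can be seen of them.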
